A study of Rattus norvegicus with 20 samples.

Results

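Urea cycle and ammonia handling was followed in the liver of 5 strains and lines of rat through 9 listed genes: Cps1, Otc, Ass1, Asl, Arg1 and Nags of the urea cycle, Gls2 and Glul for the release and capture of ammonia, and Cyp2e1 as a second gene of the cells around the central vein. The members were all ProbeSets that the annotation of the Affymetrix RAE230A array gives to these symbols. This gave 12 of the 15923 ProbeSets on the array, for 8 of the 9 genes, since no ProbeSet of the table used here carried the symbol Nags. Within the list, the 8 ProbeSets of the urea cycle enzymes and Gls2 were compared with the 4 ProbeSets of Glul and Cyp2e1.

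The arrays held liver RNA of 20 male rats aged 10 to 12 weeks, 4 animals for each of Sprague-Dawley (S-D), Long-Evans (L-E), Han/Wistar(Kuopio) (H/W), Line-A and Line-C, with 1 animal per array. S-D was outbred, L-E (Turku/AB) inbred and H/W a closed colony, while Line-A and Line-C descend from crosses between L-E and H/W. H/W and Line-A carry a mutant Ahr, the gene of the aryl hydrocarbon receptor, and S-D, L-E and Line-C carry the wild type. By the treatment notes every rat had received corn oil by gavage 19 hours before the liver was taken, although the S-D labels say only control, so that no untreated group exists here.

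In the liver, blood flows from the portal vein towards the central vein. Hepatocytes near the portal vein are known for carrying the enzymes of the urea cycle, which turn ammonia into urea, together with the liver glutaminase Gls2, which frees ammonia from glutamine inside mitochondria. A thin layer of hepatocytes around the central vein holds glutamine synthetase, the product of Glul, which takes up the ammonia that has passed the urea cycle, and the wider pericentral zone is known for Cyp2e1, a cytochrome P450 that oxidises ethanol and other small molecules.

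Values are log2 signals from GC-RMA, so a difference of 1 is a doubling, and signals of different ProbeSets were not set against each other as levels. All 12 ProbeSets lay well above the limit of expression of 4, with means from 10.08 to 14.66. Scanning took 5 days. S-D was scanned on 1 day, by an operator who scanned no other group, both lines shared another day, and L-E and H/W were spread over the other days, with 3 L-E and 2 H/W arrays on 1 of these. S-D also had a chip lot to itself, and the lines shared another lot that no other group had. Differences that involve S-D, or that set a line against a parent, therefore cannot be told apart from scan day or chip lot. For these pairs a random block by day or lot does not separate strain from batch, whether or not a call is kept. The difference between the 3' and 5' signals of the GAPDH control, a sign of RNA quality, had a mean of 0.56 ± 0.019 in S-D, 0.28 ± 0.043 in L-E, 0.49 ± 0.22 in H/W, 0.34 ± 0.12 in Line-A and 0.45 ± 0.053 in Line-C (log2, SD, n = 4), and 1 H/W rat, replicate 3, was highest at 0.81. The defining hepatocyte markers were high in every rat, the mean log2 signal of 9 of them lying between 14.99 and 15.20.

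Of the 12 ProbeSets, 8 differed among the 5 groups by the moderated F-test of limma at 5% FDR, for 6 of the 8 genes. Over the whole array 30.5% of ProbeSets passed this test, and of those with a mean of at least 8, a level that all 12 exceeded, 55.8% did. All 4 ProbeSets of Glul and Cyp2e1 passed, and 4 of the 8 ProbeSets of the urea cycle enzymes and Gls2. The 3 Glul ProbeSets had adjusted p-values of 0.00292, 0.00428 and 0.00805 and Cyp2e1 had 5.13e-04, against 0.01 for Cps1 (1370151_at), 0.0169 for Asl (1367754_s_at), 0.0270 for Otc and 0.0304 for Gls2. Ass1 (adjusted p = 0.122) and Arg1 (0.226) did not pass.

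**Figure D1:**
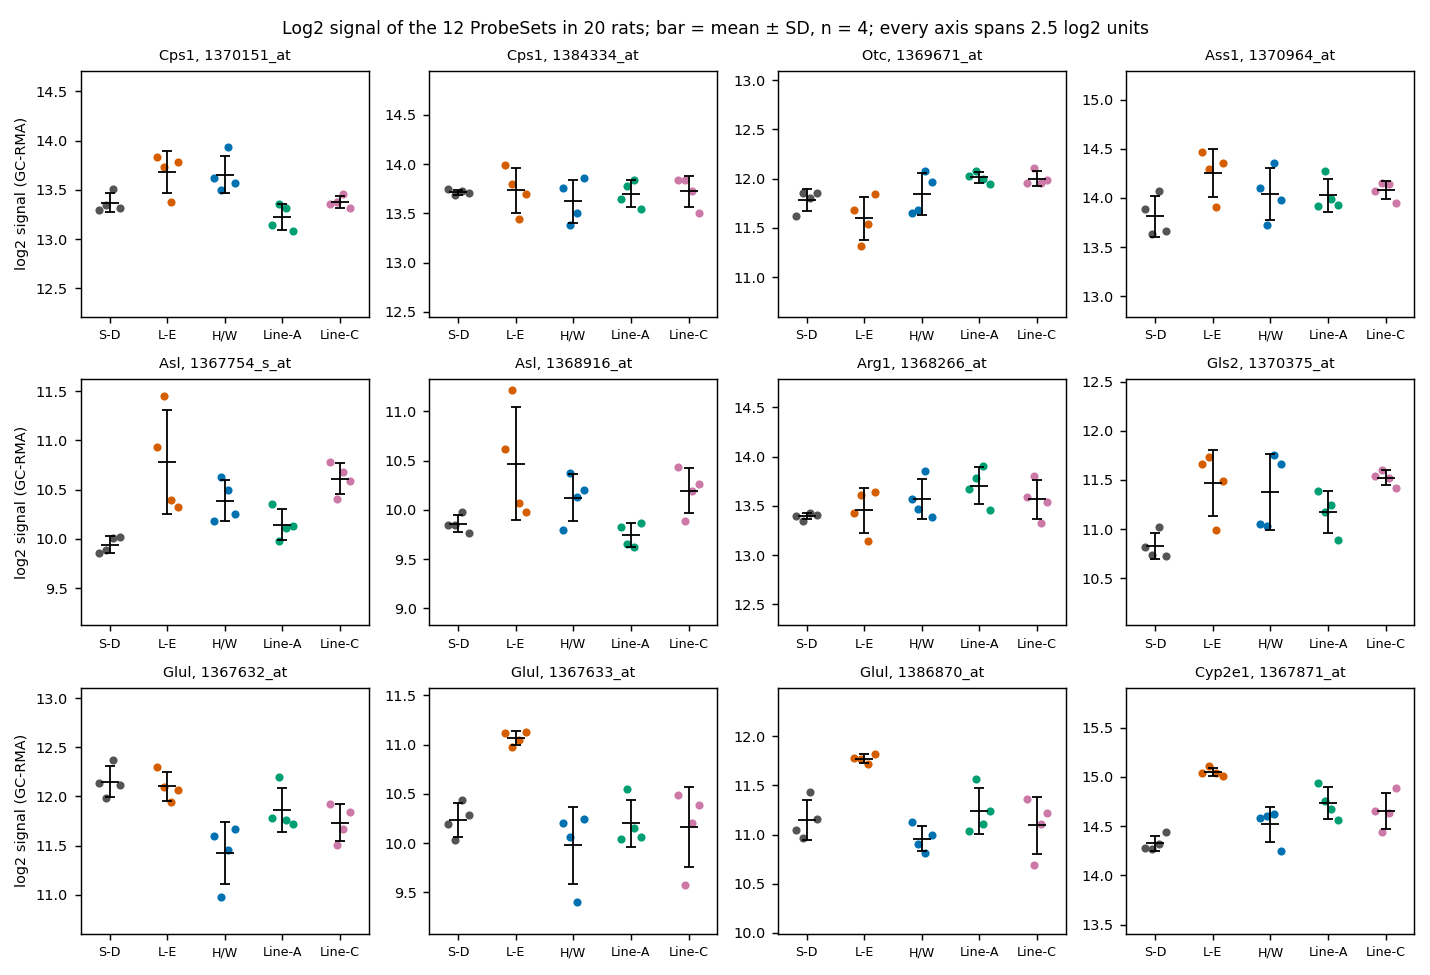
Log2 GC-RMA signal (vertical axis) of each of the 12 ProbeSets in the 20 rats, by strain or line (horizontal axis). Points are rats and bars are the mean ± SD of 4 rats. The 4 L-E rats lie above all other rats in Cyp2e1 and in 2 of the 3 Glul ProbeSets, whereas the groups of the urea cycle enzymes overlap far more.

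Glul encodes glutamine synthetase, and its ProbeSet 1367633_at gave the widest gap between group means among the members, 1.09 from H/W to L-E. In the ProbeSet 1386870_at the log2 signals of the 4 rats were for L-E 11.78, 11.77, 11.71 and 11.82, S-D 11.04, 10.96, 11.43 and 11.16, H/W 11.13, 10.91, 10.82 and 10.99, Line-A 11.03, 11.57, 11.10 and 11.24 and Line-C 11.36, 10.69, 11.10 and 11.22. Every L-E rat was above every other rat, and the other groups overlapped one another. The ProbeSet 1367633_at read for L-E 11.12, 10.98, 11.05 and 11.13, S-D 10.19, 10.03, 10.44 and 10.28, H/W 10.20, 10.06, 9.41 and 10.24, Line-A 10.04, 10.55, 10.15 and 10.06 and Line-C 10.49, 9.57, 10.20 and 10.39. L-E again stood above all other rats, and the lowest H/W rat was replicate 3.

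The third Glul ProbeSet, 1367632_at, ordered the groups differently. Its log2 signals were for S-D 12.13, 11.99, 12.37 and 12.11, L-E 12.30, 12.10, 11.95 and 12.06, H/W 11.60, 10.97, 11.46 and 11.67, Line-A 11.78, 12.20, 11.76 and 11.72 and Line-C 11.93, 11.51, 11.66 and 11.84. Here S-D and L-E overlapped at the top, H/W lay below both without overlap, and the lines spread between them, Line-A reaching into the S-D and L-E values and Line-C into those of H/W. In this ProbeSet the difference of L-E minus S-D was -0.048 and did not pass, whereas it was 0.83 in 1367633_at and 0.62 in 1386870_at, so the height of L-E over S-D depended on the ProbeSet. All 3 placed H/W below L-E.

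Cyp2e1 had the lowest within-strain share of variance of the members. Its log2 signals were for L-E 15.04, 15.11, 15.04 and 15.01, Line-A 14.94, 14.76, 14.68 and 14.56, Line-C 14.65, 14.44, 14.64 and 14.88, H/W 14.59, 14.61, 14.63 and 14.25 and S-D 14.28, 14.27, 14.32 and 14.44. L-E was above all other rats, the lines and H/W overlapped in the middle, and S-D was lowest, overlapping H/W through H/W replicate 4 and Line-C by its own highest rat. In 3 of the 12 ProbeSets, those 2 of Glul and that of Cyp2e1, L-E thus stood above all 16 other rats, while 0.672% of all ProbeSets on the array had this pattern. That share also counts ProbeSets below the limit of expression, and none was computed for those as bright as the members. No other group stood wholly above or wholly below the rest in any member.

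The promoters of Glul and Cyp2e1 are shown because these genes carried the clearest difference between strains, with that of Cps1, the entry enzyme of the cycle, for comparison. RefSeq gave promoters of 250 bases before to 50 bases after a start for 8 of the 9 listed genes, 10 promoters in all on the build GRCr8, with none listed for Arg1. They were searched on both strands for the letters of 7 motifs, C/EBP TTNNGCAA, HNF4 CAAAGTCCA, HNF1 GTTAATNA, CRE TGACGTCA, TCF/LEF CTTTGATC, E-box CACGTG and the glucocorticoid receptor motif AGAACA, and capitals mark matches.
Cyp2e1, chr1:205269717-205270016, plus strand: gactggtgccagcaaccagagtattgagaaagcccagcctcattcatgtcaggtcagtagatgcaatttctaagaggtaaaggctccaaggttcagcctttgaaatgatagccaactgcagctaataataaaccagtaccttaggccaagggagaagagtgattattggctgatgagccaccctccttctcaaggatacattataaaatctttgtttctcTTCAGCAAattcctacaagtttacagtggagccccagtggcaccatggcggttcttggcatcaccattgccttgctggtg
Glul, first start, chr13:68519250-68519549, plus strand: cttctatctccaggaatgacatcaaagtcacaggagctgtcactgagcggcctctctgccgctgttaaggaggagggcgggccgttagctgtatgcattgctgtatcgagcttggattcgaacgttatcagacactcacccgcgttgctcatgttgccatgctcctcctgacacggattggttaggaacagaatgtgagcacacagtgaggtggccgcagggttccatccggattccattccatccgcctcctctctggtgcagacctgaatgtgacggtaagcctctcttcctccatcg
Glul, second start, chr13:68575816-68576115, plus strand: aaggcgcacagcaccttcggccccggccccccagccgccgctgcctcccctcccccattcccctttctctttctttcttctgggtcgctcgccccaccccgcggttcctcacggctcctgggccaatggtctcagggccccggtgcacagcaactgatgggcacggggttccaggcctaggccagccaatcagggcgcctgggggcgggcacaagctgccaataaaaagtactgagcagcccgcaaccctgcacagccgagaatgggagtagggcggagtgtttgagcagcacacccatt
Cps1, chr9:76063613-76063912, plus strand: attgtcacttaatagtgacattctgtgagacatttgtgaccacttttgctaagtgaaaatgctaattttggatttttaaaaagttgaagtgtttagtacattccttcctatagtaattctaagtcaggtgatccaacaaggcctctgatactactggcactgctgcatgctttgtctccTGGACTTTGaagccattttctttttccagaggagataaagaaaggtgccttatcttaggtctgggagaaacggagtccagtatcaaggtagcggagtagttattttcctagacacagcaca
Cyp2e1 held 1 match to the C/EBP letters, beginning at position -30 from the start, and 10.6% of all 33469 promoters hold that motif. Cps1 held 1 match to the HNF4 letters on the opposite strand, beginning at position -71 (0.391% of all promoters). Neither Glul promoter held any of the 7 motifs in this window, nor did those of Ass1, Asl, Nags and Gls2, and the promoter of Otc held 1 match to TCF/LEF at position -13 (0.771% of all promoters). No member promoter matched HNF1 (2.59% of all), CRE (1.83%), the E-box (6.42%) or AGAACA (20.7%). These matches describe letters and not binding.

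The comparison of H/W with L-E, the 2 parents of the lines, was the only one between strains that shared scan days. Glul was lower in H/W in all 3 ProbeSets, by 1.09 ± 0.19 in 1367633_at (log2, SE, 2.13-fold, adjusted p = 0.00390), by 0.81 ± 0.14 in 1386870_at (1.76-fold, adjusted p = 0.00248) and by 0.68 ± 0.15 in 1367632_at (1.60-fold, adjusted p = 0.0159), and Cyp2e1 was lower by 0.53 ± 0.10 (1.45-fold, adjusted p = 0.00443). These 4 were the only members called, against 3.31% of all ProbeSets and 6.36% of the expressed ones, those with a mean of at least 4. None of the 8 ProbeSets of the urea cycle enzymes and Gls2 passed, with differences between -0.39 and 0.25. With scan day as a fixed term all 4 calls were kept, at -1.20, -0.83, -0.78 and -0.44. Within the day shared by 2 H/W and 3 L-E rats the differences were -1.32, -0.91, -0.82 and -0.44. Of these, that of Glul 1386870_at passed (adjusted p = 0.0393). The H/W rats of that day were replicates 2 and 3, the lowest 2 H/W rats in each Glul ProbeSet. On the other shared day, with 1 rat of each strain, the differences were -0.92, -0.65, -0.70 and -0.46 in the same order. Over all days but without H/W replicate 3, the array with the high GAPDH difference, the differences were -0.90, -0.76, -0.69 and -0.57. All 4 passed, as they did with the GAPDH difference as a covariate. Without L-E replicate 1 the call of Glul 1367632_at was lost (adjusted p = 0.0532). Fitted on the 8 arrays of these strains alone, Glul 1367632_at (adjusted p = 0.140) and 1367633_at (0.0506) did not pass, while Glul 1386870_at and Cyp2e1 did.

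With 9.59% of the array and 18.5% of its expressed ProbeSets called, L-E exceeded S-D in 5 member ProbeSets. They were Cyp2e1, higher by 0.72 ± 0.10 (adjusted p = 1.03e-04), Glul 1367633_at (0.83 ± 0.19, adjusted p = 0.0104) and 1386870_at (0.62 ± 0.14, adjusted p = 0.00673), Asl 1367754_s_at (0.83 ± 0.19, adjusted p = 0.00809) and Gls2 (0.64 ± 0.17, adjusted p = 0.0266). The median difference of the 12 was 0.53, and that of all ProbeSets 0.00. With 1 ProbeSet for each of the 8 genes the median was 0.25, beside -0.016 for all expressed ProbeSets. With scan day as a random block 2 remained, Cyp2e1 (adjusted p = 0.00213) and Glul 1386870_at (0.0469). With chip lot as a random block Cyp2e1 alone passed, Glul 1386870_at having an adjusted p of 0.0690. Since S-D had its own scan day and chip lot, neither fit separates strain from batch here. Fitted on the arrays of L-E and S-D alone, Asl (adjusted p = 0.104) and Gls2 (0.0680) were lost. With the GAPDH difference as a covariate, both Glul values lost their call (adjusted p = 0.133 and 0.0795), as did Asl (0.0719). The GAPDH difference did not overlap between these strains, at 0.23 to 0.34 in L-E and 0.54 to 0.58 in S-D. This fit therefore does not separate strain from RNA quality. The call of Gls2 was lost without any 1 of S-D replicates 1, 2 and 4 and L-E replicates 1, 2 and 4, with an adjusted p of up to 0.0907.

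H/W was below S-D in 1 member, Glul 1367632_at, by 0.72 ± 0.15 (adjusted p = 0.00533, 6.83% of the array called), a call lost when only the arrays of these strains were fitted (0.0586). Line-A was above S-D in Cyp2e1 alone, by 0.41 ± 0.10 (adjusted p = 0.00914), where 37.5% of the array was called. Line-C was above S-D in Cyp2e1 (0.33 ± 0.10, adjusted p = 0.0387), Gls2 (0.70 ± 0.17, adjusted p = 0.0182) and Asl 1367754_s_at (0.67 ± 0.19, adjusted p = 0.0315), against 12.2% of the array. Among expressed ProbeSets the shares called against S-D were 12.8% in H/W, 32.1% in Line-A and 18.1% in Line-C. None of these 4 calls of the lines over S-D passed with scan day as a random block (adjusted p between 0.0813 and 0.216), and neither did any with the arrays in blocks by chip lot. In Line-C minus S-D the calls of Asl and Cyp2e1 were each lost without any 1 of S-D replicates 1, 2 and 3 and Line-C replicates 3 and 4 (adjusted p up to 0.0775 and 0.118), and that of Gls2 without S-D replicate 2 (0.0502).

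Both lines lay below L-E in Cyp2e1 and in 2 of the 3 Glul ProbeSets. Line-C was lower by 0.91 ± 0.19 in Glul 1367633_at, 0.68 ± 0.14 in Glul 1386870_at and 0.40 ± 0.10 in Cyp2e1 (adjusted p = 0.00779, 0.00508 and 0.0153), and higher in Otc by 0.41 ± 0.10 (adjusted p = 0.0204), 4 calls where 15.8% of the array was called. Line-A was lower by 0.87 ± 0.19, 0.53 ± 0.14 and 0.32 ± 0.10 in the same 3 ProbeSets (adjusted p = 0.00744, 0.0157 and 0.0299), lower in Cps1 1370151_at and in both Asl ProbeSets, and higher in Otc, 7 calls where 27.5% was called. Among expressed ProbeSets the shares called against L-E were 21.5% in Line-C and 29.7% in Line-A. With scan day as a random block, Glul 1367633_at stayed called in both lines and Glul 1386870_at in Line-C, and the other calls of the lines against L-E did not pass. With chip lot as a random block none of the 11 calls passed, with an adjusted p of 0.0644 for Glul 1367633_at in Line-A, and of 0.0722 for the same ProbeSet and 0.0668 for Glul 1386870_at in Line-C. For Line-C, the calls of Otc and Cyp2e1 were lost without Line-C replicate 2 (adjusted p = 0.0579 and 0.0502) and that of Otc without L-E replicate 2 (0.0659). For Line-A, Asl 1367754_s_at was lost without L-E replicate 1 or 2 or Line-A replicate 2 or 4 (up to 0.0699), Asl 1368916_at without L-E replicate 2 (0.0610), both when only the arrays of Line-A and L-E were fitted (0.0821 and 0.0721), and Cyp2e1 without L-E replicate 2, 3 or 4 or Line-A replicate 4 (up to 0.106).

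Against H/W the lines had 1 call. Line-A was below H/W in Cps1 1370151_at by 0.43 ± 0.10 (adjusted p = 0.0161), with 6.39% of the array and 13.4% of expressed ProbeSets called. This call was lost without Line-A replicate 4 (adjusted p = 0.0553), with scan day or chip lot as a random block (0.0931 and 0.152) and with only the arrays of both groups (0.105). It was not made in the other Cps1 ProbeSet. Line-C differed from H/W in no member at 5% FDR with limma, with 1 ProbeSet at an unadjusted p under 0.05, where 3.89% of the array was called. Line-A and Line-C, which carry different Ahr alleles, differed from each other in no member, with 2 at an unadjusted p under 0.05 and 1.39% of the array called. The Ahr coefficient of the genetic model of the methods, which by its construction is the same difference as that between Line-A and Line-C, passed in no member, with 1 at an unadjusted p under 0.05, against 0.659% of the array.

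**Figure D2:**
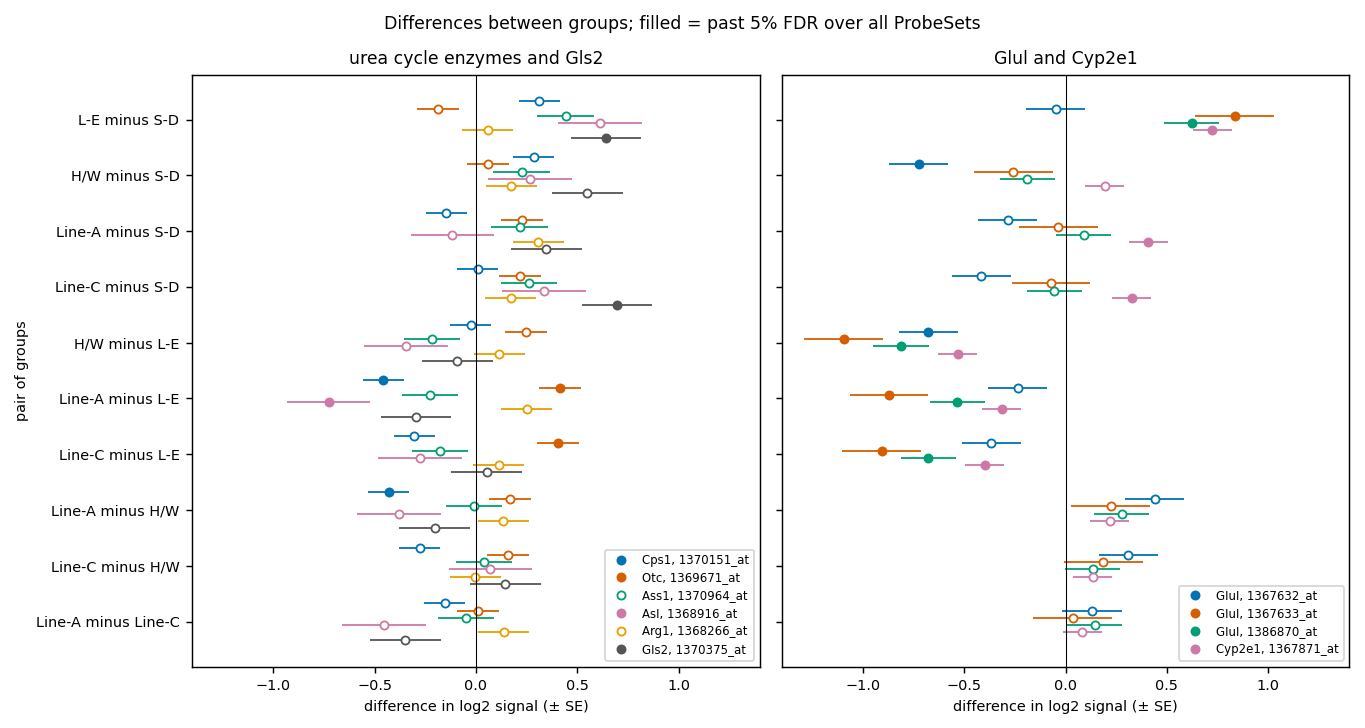
Difference in log2 signal with its standard error (horizontal axis) for the 10 pairs of groups (vertical axis), on the left for 1 ProbeSet each of the urea cycle enzymes and Gls2, on the right for the 4 of Glul and Cyp2e1. Cps1 is drawn by 1370151_at and Asl by 1368916_at. Not drawn are Cps1 1384334_at, which had no call, and Asl 1367754_s_at, which was also called in L-E minus S-D and Line-C minus S-D. Filled points passed 5% FDR over all ProbeSets. On the right the 3 rows that set H/W or a line against L-E hold points between -1.09 and -0.24, and the row of Line-A minus Line-C has no filled point on either side.

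H/W and Line-A share the mutant Ahr, and L-E and Line-C the wild type, so the difference of H/W minus L-E was set against that of Line-A minus Line-C by the interaction of both. This test was added after the values were seen. For Glul 1386870_at the first was -0.81 and the second 0.14, a difference between them of -0.96 ± 0.19 (adjusted p = 0.0129), and for Cyp2e1 they were -0.53 and 0.083, a difference of -0.61 ± 0.14 (adjusted p = 0.0243). Glul 1367633_at gave -1.13 ± 0.28 (adjusted p = 0.0433) and 1367632_at -0.81 ± 0.21 (adjusted p = 0.0565). Over the array 2.01% of ProbeSets passed, and 4.13% of the expressed ones, while no urea cycle enzyme did (adjusted p of at least 0.604). The strain gap in Cyp2e1 and 2 of the Glul ProbeSets was thus larger between the parents than between the lines that carry the same Ahr alleles. The call of Glul 1367633_at was lost without any 1 of 15 of the 20 rats, including H/W replicate 3 (adjusted p = 0.0524), that of Cyp2e1 without L-E replicate 2 (0.0513), and that of Glul 1386870_at in no such fit. With the GAPDH difference as a covariate, Glul 1367633_at did not pass (adjusted p = 0.0720), while Glul 1386870_at (0.0499) and Cyp2e1 (0.0257) did.

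Cps1, carbamoyl phosphate synthetase, makes the first committed compound of the cycle from ammonia. Its ProbeSet 1370151_at read for S-D 13.30, 13.35, 13.51 and 13.32, L-E 13.83, 13.74, 13.37 and 13.78, H/W 13.62, 13.50, 13.93 and 13.57, Line-A 13.14, 13.35, 13.32 and 13.09 and Line-C 13.36, 13.38, 13.46 and 13.32. H/W was above all rats of both lines, and 3 of the 4 L-E rats were too. The lines together were below their parents by 0.37 ± 0.07 (adjusted p = 0.00265), where 24.4% of the array and 32.1% of expressed ProbeSets were called. The second ProbeSet, 1384334_at, showed group means from 13.62 to 13.73, no difference by the F-test (adjusted p = 0.884) and lines minus parents at 0.034, so the change in Cps1 rests on 1 of 2 ProbeSets.

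Otc, ornithine transcarbamylase, joins carbamoyl phosphate to ornithine to give citrulline, and its gene lies on the X chromosome. Its log2 signals were for S-D 11.62, 11.86, 11.80 and 11.86, L-E 11.68, 11.32, 11.54 and 11.84, H/W 11.65, 11.69, 12.08 and 11.97, Line-A 12.03, 12.08, 12.00 and 11.94 and Line-C 11.95, 12.11, 11.95 and 11.99. All 8 rats of the lines were above all S-D and L-E rats, and H/W spread over both levels. The lines exceeded their parents by 0.29 ± 0.07 (adjusted p = 0.0148), and Line-A exceeded L-E by 0.42 ± 0.10 (adjusted p = 0.0137). These were the only 2 members called between lines and parents, in opposite directions. With scan day as a random block neither passed, at adjusted p = 0.0839 for Cps1 1370151_at and 0.229 for Otc. Every limma call of Otc was also lost with equal array medians. The adjusted p was then 0.0713 for lines minus parents, 0.0547 for Line-A minus L-E and 0.0822 for Line-C minus L-E.

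Ass1, argininosuccinate synthetase, adds aspartate to citrulline. Its group means ran from 13.81 ± 0.21 in S-D over 14.03 ± 0.17 in Line-A, 14.04 ± 0.26 in H/W and 14.08 ± 0.091 in Line-C to 14.26 ± 0.24 in L-E (SD, n = 4). No neighbours in this order were called, and the largest gap, L-E over S-D, was 0.44 ± 0.14 (adjusted p = 0.0559). Arg1, the liver arginase that releases urea, ran from 13.40 ± 0.032 in S-D over 13.45 ± 0.23 in L-E, 13.57 ± 0.20 in Line-C and 13.57 ± 0.21 in H/W to 13.70 ± 0.19 in Line-A, with every range overlapping that of the next group.

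Asl, argininosuccinate lyase, splits off fumarate and leaves arginine. The ProbeSet 1368916_at read for S-D 9.84, 9.84, 9.98 and 9.77, L-E 10.62, 11.22, 10.07 and 9.98, H/W 9.80, 10.37, 10.13 and 10.20, Line-A 9.83, 9.65, 9.63 and 9.86 and Line-C 10.44, 9.89, 10.19 and 10.27. L-E was the most spread group of any member, its rats 1 and 2 lying above all other rats and its rats 3 and 4 within the range of H/W. The second ProbeSet, 1367754_s_at, is given to Asl by the array annotation, but its accession belongs to Hnrnpab in the RefSeq table. Centred on strain, its signals correlated with the first Asl ProbeSet at r = 0.93 and with a ProbeSet of Hnrnpab at r = 0.49, over the same 20 arrays. Line-A was below L-E by 0.73 ± 0.21 in 1368916_at (adjusted p = 0.0233) and by 0.63 ± 0.19 in 1367754_s_at (adjusted p = 0.0267).

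Gls2 releases ammonia from glutamine beside the urea cycle. Its log2 signals were for S-D 10.82, 10.74, 11.02 and 10.73, L-E 11.66, 11.73, 11.00 and 11.49, H/W 11.06, 11.03, 11.76 and 11.67, Line-A 11.38, 11.18, 11.25 and 10.89 and Line-C 11.54, 11.61, 11.52 and 11.42. S-D lay below all Line-C and H/W rats and below 3 of the 4 L-E rats. H/W fell into a lower and an upper pair of rats, replicates 1 and 2 against 3 and 4.

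To compare the zones in each animal, the mean log2 signal of the 5 measured urea cycle enzymes was set against that of Glul and of Cyp2e1. Each enzyme was read by its brightest ProbeSet. This was 1384334_at for Cps1, and for Asl 1367754_s_at, whose accession belongs to Hnrnpab. Since ProbeSets differ in brightness, only the change of this difference between groups can be read. Against Cyp2e1 it was lowest in L-E at -2.29 ± 0.18, next in Line-A at -2.02 ± 0.14, then in Line-C at -1.86 ± 0.25, with H/W at -1.83 ± 0.20 and S-D highest at -1.80 ± 0.082 (SD, n = 4). Against the brightest Glul ProbeSet it rose from 0.38 ± 0.11 in S-D over 0.66 ± 0.12 in L-E, 0.85 ± 0.19 in Line-A and 1.06 ± 0.22 in Line-C to 1.27 ± 0.28 in H/W, and no rat of S-D reached the lowest L-E rat, nor any L-E rat the lowest H/W rat. Against the mean of all 3 Glul ProbeSets L-E was lowest, its rats lying between 0.92 and 1.28, below the mean of S-D at 1.35 ± 0.12 but overlapping its rats, and H/W stayed highest at 1.91 ± 0.28. The mean of the urea cycle enzymes itself ran from 12.53 ± 0.055 in S-D to 12.80 ± 0.069 in Line-C.

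**Figure D3:**
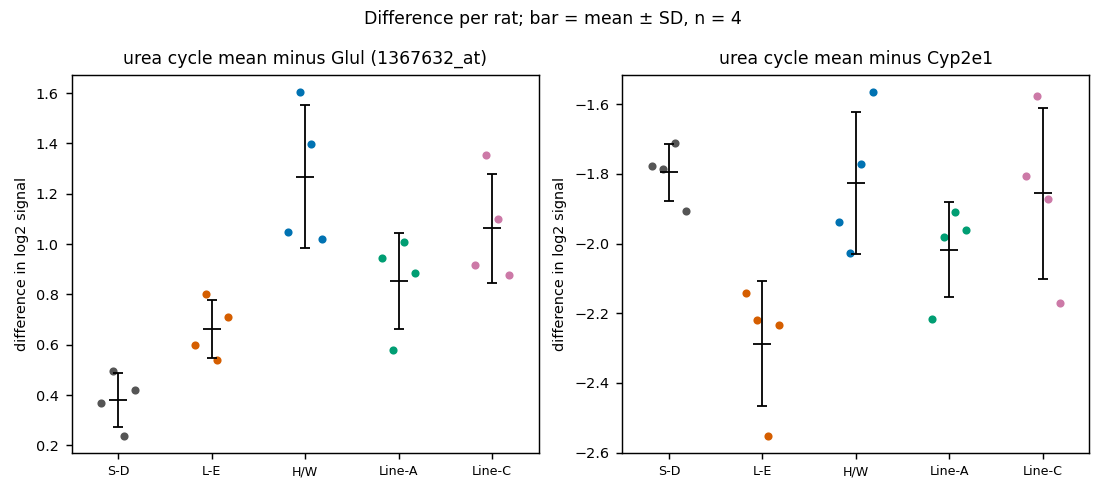
Mean log2 signal of 5 urea cycle enzymes minus the log2 signal of Glul 1367632_at (left) or of Cyp2e1 (right), per rat (vertical axis) and by strain or line (horizontal axis), with bars for the mean ± SD of 4 rats. Cps1 was read by 1384334_at and Asl by 1367754_s_at. The left panel has S-D lowest at 0.38 and H/W highest at 1.27, and the right panel has L-E lowest at -2.29.

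The share of variance within strains (W/T, the within-strain part of the total of within and between parts) had a median of 0.47 over the 12 ProbeSets, 0.56 over the urea cycle enzymes and Gls2 and 0.33 over Glul and Cyp2e1, beside 0.62 for all ProbeSets with a mean of at least 4 and 0.53 for those of at least 8. Of the 4 ProbeSets of Glul and Cyp2e1, 3 read the same gene. The between part includes any differences of scan day and chip lot. W/T was lowest in Cyp2e1, at 0.23 ± 0.12 (jackknife SE over 20 arrays), and 0.31 ± 0.17, 0.34 ± 0.18 and 0.38 ± 0.099 in the Glul ProbeSets. Arg1 (0.86 ± 0.26) and the Cps1 ProbeSet 1384334_at (1) were at the other end. The median SD among rats of a strain was similar in both groups, 0.19 for the urea cycle enzymes and Gls2 and 0.21 for Glul and Cyp2e1, while the median range of group means was 0.45 against 0.77.

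Among rats of 1 strain, 13 relations were computed between strain-centred signals, each of 6 periportal genes with Glul and with Cyp2e1, and Glul with Cyp2e1. Glul, Cps1 and Asl were read by their brightest ProbeSets, for Asl 1367754_s_at, whose accession belongs to Hnrnpab. None passed 5% FDR by a two-sided permutation test with 100000 shuffles within strains. Ass1 with Glul had r = 0.62 (p = 0.0138, adjusted p = 0.140) and rho = 0.57 (p = 0.0202, adjusted p = 0.132), falling to r = 0.33 without the 2 rats farthest from the median of Glul. Cps1 with Glul had r = 0.55 (p = 0.0323, adjusted p = 0.140) and rho = 0.49 (p = 0.0562, adjusted p = 0.244), falling to 0.40. Asl with Cyp2e1 had r = 0.37 (p = 0.0260, adjusted p = 0.140) and rho = 0.52 (p = 0.0159, adjusted p = 0.132), positive in 5 of 5 groups, and 0.46 without 2 rats. Glul and Cyp2e1 had r = 0.029 (p = 0.929, adjusted p = 0.929) and rho = 0.20 (p = 0.458, adjusted p = 0.850). Centred on scan day as well, no relation passed.

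**Figure D4:**
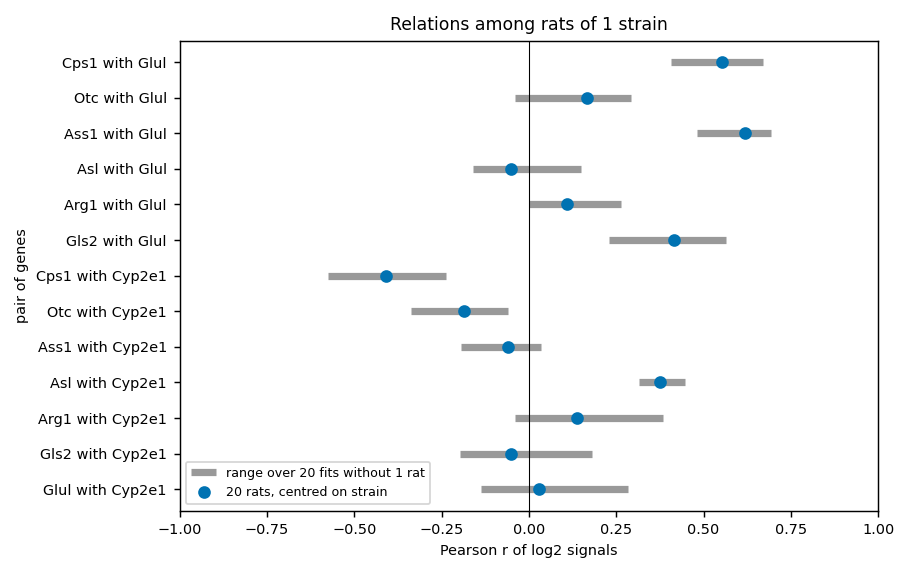
Pearson r of strain-centred log2 signals (horizontal axis) for 13 pairs of genes (vertical axis) over 20 rats, with grey bars for the range when 1 rat at a time is left out. The points for Ass1 and Cps1 with Glul lie at 0.62 and 0.55, that of Glul with Cyp2e1 at 0.029, and none passed 5% FDR.

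Over all 20 arrays, strain differences included, the gene most like Cyp2e1 among 5380 candidates was Gde1 (r = 0.90), followed by Chchd10 (0.84) and Etfdh (0.84), an electron carrier of mitochondrial fat oxidation. The gene most like Glul was Gng5 for 1367632_at (r = 0.88), Slco2b1 for 1367633_at (0.82) and Igfbp2 for 1386870_at (0.79). Asl 1367754_s_at was most like Got1 (0.88), the cytosolic aspartate aminotransferase, Gls2 most like Mccc1 (0.92), Otc most like Synj2bp (0.82) and Cps1 1370151_at most like Prrc2a (0.84). These genes are the extremes of many candidates, and the arrays share strain and scan day.

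Other genes of nitrogen handling were taken from a list of 42, of which 33 were on the array and 27 reached the limit of expression. Of the 27, 19 passed the F-test (70.4%). The share was 44.8% of all ProbeSets with a mean of at least 4. It was 55.8% of those with a mean of at least 8, a level that most of the 27 exceeded. L-E exceeded S-D in 7 and was lower in 3, where 18.5% of all expressed ProbeSets were called. The higher ones included Oat, the ornithine aminotransferase (1.27 ± 0.27, adjusted p = 0.00468), Got1 (1.08 ± 0.28, adjusted p = 0.0221, SD 0.79 in L-E and 0.25 in S-D, n = 4) and Gpt, the alanine aminotransferase (0.99 ± 0.21, adjusted p = 0.00529). H/W exceeded L-E in 3 and was lower in 1, where 6.36% of all expressed ProbeSets were called, with Sirt5, a mitochondrial deacylase known to act on Cps1 protein, higher by 1.10 ± 0.18 (adjusted p = 0.00248). Sirt3, another mitochondrial deacylase, was lower in Line-C than in Line-A by 2.29 ± 0.23 (4.88-fold, adjusted p = 3.86e-05). Prodh, the first enzyme of proline breakdown, was higher than in S-D by 0.92 ± 0.27 in Line-A and 1.04 ± 0.27 in Line-C (adjusted p = 0.0280 and 0.0242).

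Of 13 expressed regulators of the urea cycle genes, out of 21 listed, 5 passed the F-test (38.5%). The share was 44.8% of all ProbeSets with a mean of at least 4 and 55.8% of those with a mean of at least 8. In the pairs named below, the share of expressed ProbeSets called was 29.7% in Line-A minus L-E and 21.5% in Line-C minus L-E. It was 18.5% in L-E minus S-D and 2.89% in Line-A minus Line-C. Cebpa, a liver transcription factor known to act on Cps1, was highest in L-E, with a mean of 9.09 against 8.16 in S-D and 8.62 in H/W, and lower than in L-E by 1.24 ± 0.20 in Line-A and 1.35 ± 0.20 in Line-C (adjusted p = 8.17e-04 and 5.73e-04). Gcgr, the glucagon receptor, was higher in Line-A than in Line-C by 0.72 ± 0.16 (adjusted p = 0.0287). Ctnnb1, beta-catenin, which is known for setting the pericentral programme, was lower in L-E than in Line-A by 0.62 ± 0.07 (adjusted p = 2.90e-05) and than in S-D by 0.32 ± 0.07 (adjusted p = 0.00506). Foxa2 and Nr1i3 were the other genes past the F-test.

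Other markers of the zones gave calls in both directions. In H/W minus L-E, of 14 expressed pericentral markers 2 were higher and 0 lower, against 6.36% of all expressed ProbeSets called, with Cyp2c22 higher by 1.07 ± 0.23 (adjusted p = 0.0167) and a median of 0.22, and Oat, a neighbour of Glul in the same cell layer, 10.49 ± 0.55 against 11.48 ± 0.33 (SD, n = 4), a difference of -0.99 ± 0.27 that did not pass (adjusted p = 0.0517). In L-E minus S-D, where 18.5% of all expressed ProbeSets were called, 5 were higher and 2 lower, with Cyp1a2 higher by 0.76 ± 0.10 and Cyp2c22 lower by 0.88 ± 0.23 (adjusted p = 8.97e-05 and 0.0227). Of 12 expressed periportal markers 1 was higher and 1 lower in H/W than in L-E, the lower one being Cdh1, E-cadherin, by 1.21 ± 0.15 (adjusted p = 2.12e-04). In Line-A minus S-D, where 32.1% of all expressed ProbeSets were called, 3 of the 12 periportal markers were higher and 3 lower. Pck1, the gluconeogenic enzyme, was among the lower ones, by 1.14 ± 0.28 (adjusted p = 0.0119). Its SD was 0.84 in Line-A and 0.17 in S-D (n = 4). Cyp2c22 was likewise widely spread in L-E, with an SD of 0.65 against 0.22 in H/W and 0.10 in S-D. Lgr5, Tbx3, Slc1a2, Slc22a3 and Ahr among the pericentral genes were below the limit of expression.

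Markers of other cell types moved with some of the comparisons. Of all expressed ProbeSets, 18.5% were called against S-D in L-E, 12.8% in H/W, 32.1% in Line-A and 18.1% in Line-C, 6.36% in H/W minus L-E, 29.7% in Line-A minus L-E and 2.89% in Line-A minus Line-C. All 4 expressed endothelial markers were lower than in S-D in each other group, and the log2 of their summed signal was 11.50 to 11.80 in S-D and 10.90 to 11.24 in the rest. In H/W minus L-E 1 of the 4, Kdr, was lower by 0.30 ± 0.078 (adjusted p = 0.0413). Of 6 stellate markers 3 to 5 were lower than in S-D, with summed signals of 10.71 to 11.54 in S-D, 9.09 to 9.48 in L-E, 9.28 to 9.89 in H/W, 9.53 to 9.91 in Line-A and 9.60 to 10.38 in Line-C, and Des, Rgs5 and Lum below the limit. In H/W minus L-E 1 of the 6, Lrat, was higher by 0.83 ± 0.18 (adjusted p = 0.0169). Its mean was 3.68 ± 0.50 in L-E, under the limit of expression, and 4.51 ± 0.17 in H/W (SD, n = 4). Of 6 Kupffer cell markers, 1 was lower than in S-D in L-E, 5 in H/W, 6 in Line-A and 2 in Line-C. Line-A was lower than L-E in 5 and lower than Line-C in 2, and H/W was lower than L-E in 1. Lyz2, lysozyme, was lower in Line-A than in Line-C by 1.82 ± 0.21 (3.53-fold, adjusted p = 1.09e-04). The summed signals of the Kupffer markers were 11.45 to 11.84 in S-D, 11.16 to 11.67 in L-E, 10.98 to 11.34 in H/W, 10.68 to 10.84 in Line-A and 11.23 to 11.60 in Line-C. The 1 expressed cholangiocyte marker, Epcam, was lower than in S-D in each other group, and of 5 expressed blood markers 1 was higher and 1 lower in L-E than in S-D and none was called in H/W minus L-E. The part of these cells in the differences of the members was not tested, and fewer cells of a type cannot be told apart from less RNA per cell.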

How the data were processed

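Liver RNA of 20 rats was run on Affymetrix RAE230A arrays, 1 rat per array. The labels give replicate numbers, and by the study methods the 4 rats of a group were separate animals. The authors made the deposited log2 signals with GC-RMA, in which background is estimated from probe sequence, arrays are quantile normalised and probes are combined into ProbeSets. Their processing notes name R 2.6.1, affy 1.12.0 and GCRMA 2.10.0. No scaling was added to them. The deposited array headers, whose content is text and not signal, gave scan day, chip lot and operator as codes. The number of arrays limits the precision.

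Groups came from the labels. ProbeSets were named by the platform annotation, and promoters came from RefSeq (GRCr8). The members, the gene lists and the tests were chosen with earlier results of these data known. Linear models were fitted to all 15923 ProbeSets in R 4.3.3 with limma 3.58.1 (statmod 1.5.0 for random blocks), with 1 mean per group for the 10 pairs, the F-test, lines against parents and the interaction, and with S-D, L-E, H/W and Ahr terms for the Ahr coefficient. P-values were adjusted by Benjamini and Hochberg over all ProbeSets and called at 5% FDR. W/T used variance components in a 1-way layout, with a negative between-strain component set to 0. Relations used Python 3.11.15 with numpy 2.4.6 and the ProbeSet with the highest mean per gene, with 10000 shuffles in the alternatives. The steps were tested on simulated data.

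The genes to name were all 9 members with every ProbeSet, up to 6 genes of each list with the largest range of group means among those past the F-test, and the 3 genes most like each member past the F-test by Pearson r, of which the text gives some. Markers below the limit of 4 are named outside this rule. Of 15 relations planned, 13 could be computed, since Nags had no ProbeSet. Replicate numbers did not pair the rats: of 40 same-numbered pairs of rats from different groups 6 had deviations correlated above 0.1 (median -0.01). Alternatives were limma's trend, array weights, quantile normalization, equal medians, a filter at a mean of 4, 1% FDR, each array left out, blocks by replicate, scan day (random or fixed) and chip lot, H/W against L-E within a shared scan day, pairs fitted alone and other ProbeSets. The GAPDH covariate, the interaction, the exclusion of 1 Asl ProbeSet and the family of all gene pairs were added after seeing the data.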

Additional observations from a re-analysis of the deposited data

Results flagged for a closer look

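In 2 cases a value lay far from the other 3 rats of its group by Dixon's ratio, out of 60 groups of 4 rats tested, where chance flags about 1 in 20. The Line-A rat 2 had a Glul 1367632_at signal of 12.20, with the other Line-A rats between 11.72 and 11.78. The H/W rat 4 had a Cyp2e1 signal of 14.25, with the others between 14.59 and 14.63.

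The difference of H/W minus L-E was not the same as that of Line-A minus Line-C in 3 ProbeSets by the interaction in limma, adjusted over all ProbeSets: -1.13 in Glul 1367633_at (adjusted p = 0.0433), -0.96 in Glul 1386870_at (adjusted p = 0.0129) and -0.61 in Cyp2e1 (adjusted p = 0.0243). In each, every L-E rat was above every H/W rat, while the Line-A and Line-C rats overlapped.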

How the results depend on the processing

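Of 31 called differences of single ProbeSets, 18 were kept in each of the 20 fits that left out 1 array and none reversed. Over the 10 pairs the members had 26 calls, between 21 and 31 when 1 array was left out, 12 at 1% FDR, 10 with scan day and 6 with chip lot as a random block. The F-test called 8 ProbeSets, 7 to 9 with 1 array left out, 4 at 1% FDR and 4 with either block. Lines against parents had 2 calls, 2 to 3 with 1 array left out, 5 with array weights, 1 with equal array medians, 1 at 1% FDR and 0 with either block. The Ahr coefficient had 0 in all fits that left out 1 array. With scan day as a random block 13 of the 31 were kept, with chip lot 9, with the GAPDH covariate 25 and at 1% FDR 13. Fitting only the arrays of the 2 groups ended 8 of the 26 calls of the pairs. The cause of the losses was not tested. The replicate block left 24 calls over the pairs, 7 by the F-test, 2 for lines against parents and 0 for Ahr, and ended 4 of the 31: Gls2 in L-E minus S-D (adjusted p = 0.0547), Cyp2e1 in Line-C minus S-D (0.0566) and the interactions of Glul 1367633_at (0.0699) and Cyp2e1 (0.0530). The direction turned only with another ProbeSet of the gene: Glul 1367632_at gave -0.048 for L-E minus S-D, and Cps1 1384334_at gave 0.077 for Line-A minus H/W and 0.034 for lines minus parents.

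No relation passed in the main setting, and 0 to 3 did with 1 array left out, 2 without Line-C replicate 2 and 3 without Line-C replicate 4. With signals adjusted for the GAPDH difference 1 passed, Ass1 with Glul (r = 0.63, adjusted p = 0.0312). The median W/T ranged from 0.38 to 0.50 with 1 array left out. The mean difference of the urea cycle enzymes from Glul ranged from 0.34 to 0.43 in S-D, 0.62 to 0.70 in L-E, 1.16 to 1.35 in H/W, 0.80 to 0.95 in Line-A and 0.96 to 1.12 in Line-C, and from Cyp2e1 from -1.82 to -1.76, -2.33 to -2.20, -1.91 to -1.76, -2.05 to -1.95 and -1.95 to -1.75 in the same order.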

Other observations

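Among the 15 remaining pairs of urea cycle genes and Gls2, looked at after the data were seen, the strain-centred signals of 20 rats were most alike for Ass1 and Gls2 (r = 0.65, permutation p = 0.0217, adjusted p = 0.181 over all 28 pairs of the 8 genes; rho = 0.57, p = 0.0314) and for Ass1 and Arg1 (r = 0.57, p = 0.0234, adjusted p = 0.181; rho = 0.61, p = 0.00855). Otc and Asl, read by 1367754_s_at, had r = -0.44 (permutation p = 0.234, adjusted p = 0.547) and rho = -0.22 (p = 0.467). None of the 28 pairs passed 5% FDR.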
